A study of Mus musculus with 8 samples.

Results

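The germline piRNA pathway was described in single mouse oocytes through 10 of its genes, chosen by symbol: Piwil1, Piwil2, Piwil4, Mael, Gtsf1, Ddx4, Tdrkh, Tdrd1, Tdrd9 and Asz1. All 10 had 1 Ensembl identifier each among the 37620 listed, and all 10 had reads in at least 1 oocyte. RNA-seq had been made from 8 single C57BL/6 oocytes at the MII stage, the second meiotic metaphase, at which the egg waits for fertilization. The WT group is 4 oocytes with the genotype label Hira f/f, in which both Hira alleles are flanked by loxP sites and no Cre is named. The KO group is 4 oocytes with the label Hira f/f and Gdf9-Cre+, in which a recombinase driven by the Gdf9 promoter, active in oocytes, is present. Sample titles of both groups carry a Gdf9-Cre+ tag, so groups were taken from the genotype and description fields, and no age, treatment or female is named for any oocyte. Since every library is 1 cell and no female is named, each genotype counts as 1 sample. SDs below are spread between oocytes, and the comparison of genotypes carries no test.

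Hira, the deleted gene, encodes a chaperone of the histone variant H3.3. It had 42, 0, 96 and 1 reads in WT oocytes 1, 2, 4 and 5. In KO oocytes 1, 3, 5 and 6 it had 0, 2, 0 and 2 reads. It therefore checks the labels of 2 WT oocytes at most. Gm28539 lies on the same strand over 44.7% of the exonic bases of Hira. The labels do not state how reads in shared exons were counted, so how far these counts give the level of Hira is not known. Libraries held between 38032455 and 50208686 reads, of which 84.3% to 86.1% in WT and 75.0% to 80.3% in KO lay in listed genes. Of 10 oocyte markers, 9 had at least 1 FPKM (fragments per kilobase, which divides reads by gene length and by library size) in all 8 oocytes, Figla being the exception. The summed level of these markers was 15377 to 20503 FPKM in WT and 8820 to 11219 in KO. Of 10 granulosa and cumulus cell markers, 3 had no read (Amh, Foxl2 and Inha), and the sums were 16.8 to 27.7 FPKM in WT and 8.02 to 30.3 in KO, mostly from Cyp19a1. Of 8 male germ cell markers, Tnp1 and Tnp2 had no read, Prm2 and Odf1 reached 1 FPKM in at least 4 oocytes, and the sums were 1.22 to 6.08 FPKM in WT and 3.87 to 10.6 in KO. Blood cell markers summed to at most 0.334 FPKM in WT and 4.46 in KO. The part of these differences in the results below was not tested.

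PIWI proteins are Argonaute relatives that bind small RNAs called piRNAs and silence transposable elements in germ cells, by cutting their transcripts and by directing DNA methylation. The pathway is assembled in perinuclear and mitochondria-associated granules known as nuage, where Tudor domain proteins bind methylated arginines of PIWI proteins. In mice its loss blocks spermatogenesis, whereas female mutants of most of its genes are fertile and mouse oocytes also use endogenous siRNAs made by Dicer.

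Windows of 250 bases before the RefSeq transcription start (GRCm38.p6) were matched for 9 of the 10 members, all but Piwil2. They are shown for Gtsf1, the member with the highest level, and for Ddx4 and Piwil1, the members with ranges apart in opposite directions among those at 1 FPKM or more in at least 4 oocytes. Capitals mark the letters CACGTG, an E-box, and TTCCCGC or its complement GCGGGAA, a match to E2F sites.
Gtsf1: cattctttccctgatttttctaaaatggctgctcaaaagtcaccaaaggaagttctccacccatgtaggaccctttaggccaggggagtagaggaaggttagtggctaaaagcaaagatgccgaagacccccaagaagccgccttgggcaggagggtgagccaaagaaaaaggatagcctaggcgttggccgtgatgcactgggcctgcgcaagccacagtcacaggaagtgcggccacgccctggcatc
Ddx4: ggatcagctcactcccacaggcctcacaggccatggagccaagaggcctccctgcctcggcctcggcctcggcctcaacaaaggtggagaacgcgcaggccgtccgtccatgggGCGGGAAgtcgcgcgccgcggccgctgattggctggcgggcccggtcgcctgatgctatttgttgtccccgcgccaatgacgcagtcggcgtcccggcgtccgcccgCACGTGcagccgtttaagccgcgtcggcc
Piwil1: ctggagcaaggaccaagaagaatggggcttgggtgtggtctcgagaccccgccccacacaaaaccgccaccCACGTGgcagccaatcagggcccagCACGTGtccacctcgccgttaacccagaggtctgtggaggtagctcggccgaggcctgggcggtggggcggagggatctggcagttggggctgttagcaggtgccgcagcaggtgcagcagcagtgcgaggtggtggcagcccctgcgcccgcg
The windows lie at chr15:103430428-103430677 on the minus strand, chr13:112652311-112652560 on the minus strand and chr5:128735996-128736245 on the plus strand. GENCODE M21 places all 3 gene starts elsewhere, inside the window for Gtsf1 and Ddx4 and upstream of it for Piwil1. CACGTG, which reads the same on both strands, occurred in the windows of 5 members, Piwil1 and Tdrd9 with 2 copies in a window and Mael, Ddx4 and Tdrd1 with 1. Of all 27025 genes with a window, 6.86% held it in at least 1 of their windows, and so did 8.88% of the windows with at least the median number of CpG dinucleotides, 6. TTCCCGC, searched on both strands, occurred in Ddx4 alone, against 4.38% of genes. TAATTG, bound by the oocyte homeobox factor NOBOX and searched on both strands, occurred in Tdrkh alone, in 2 copies, against 8.30% of genes. The Ddx4 window held 31 CpG dinucleotides, more than 94.8% of windows, the Piwil1 window 16 and the Gtsf1 window 7. Gtsf1, the highest member, had none of these motifs, and both Ddx4 and Piwil1 had CACGTG. Any link of the motifs with level or difference was not tested.

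The 10 genes covered a wide range of levels, with the PIWI genes at or near the bottom. Gtsf1 was highest in both genotypes and ranked between 277 and 840 among all listed genes in the 8 oocytes. In WT, Asz1, Ddx4, Tdrkh, Tdrd1, Mael and Piwil1 followed in this order, and Tdrd9, Piwil2 and Piwil4 came last. In WT the ranges over oocytes stood apart between Gtsf1 and Asz1, between Asz1 and Ddx4, and between Piwil1 and Tdrd9, while other neighbours in the order overlapped. In KO, Ddx4 stood in the second place with a range that overlapped that of Asz1, and Mael lay above Tdrd1, also with overlap. Summed over the 10 genes, the level was 195.7 ± 33.2 FPKM in WT oocytes and 157.8 ± 19.2 FPKM in KO oocytes (SD, n = 4 each). Gtsf1 made up 60.4% to 75.4% of that sum in WT and 41.5% to 59.9% in KO.

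**Figure D1:**
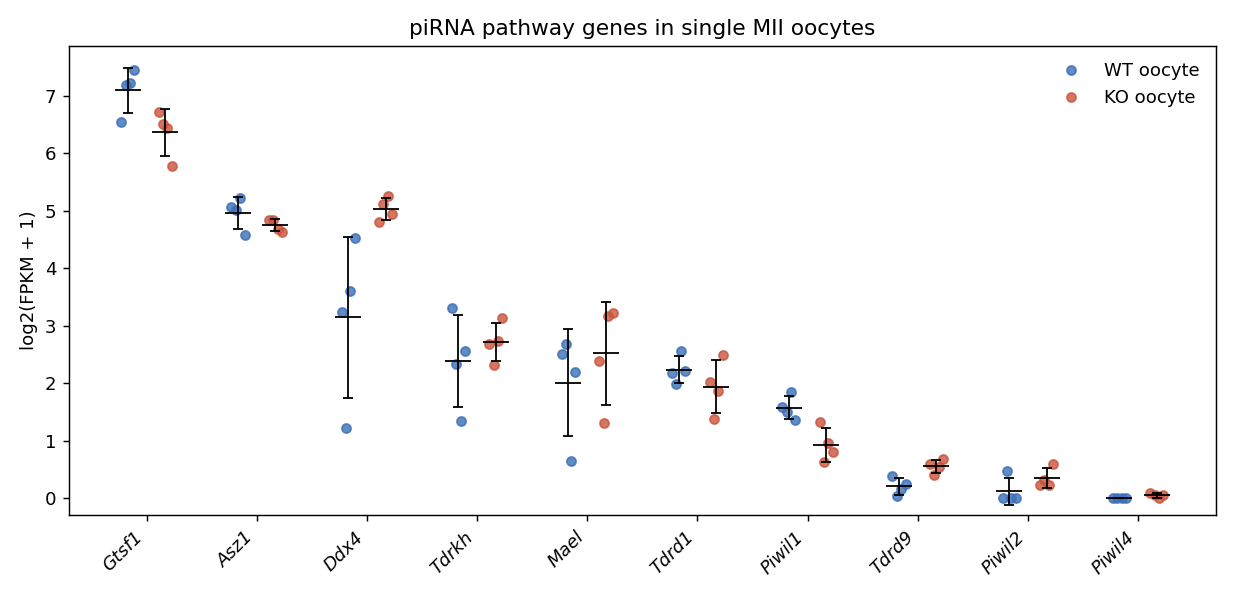
Level of the 10 piRNA pathway genes in log2(FPKM + 1), on a scale with 1 point per oocyte (4 WT in blue, 4 KO in red) and black bars for the mean and SD over oocytes. Gtsf1 lies highest, Ddx4 has a wide spread in WT and a narrow one in KO, and Tdrd9, Piwil2 and Piwil4 lie near 0.

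Among the PIWI genes Piwil1 was the only one to reach 1 FPKM in any oocyte, and it was lower in KO. Piwil1 (ENSMUSG00000029423, chromosome 5, 128702524 to 128755474, plus strand, GRCm38) encodes MIWI, the PIWI protein of meiotic and postmeiotic male germ cells. It was 2.004, 1.82, 2.60 and 1.57 FPKM in WT oocytes 1, 2, 4 and 5, and 1.496, 0.546, 0.948 and 0.749 FPKM in KO oocytes 1, 3, 5 and 6. Every KO oocyte lay below every WT oocyte, with WT 5 and KO 1 as the nearest pair. The means were 2.001 ± 0.437 and 0.935 ± 0.408 FPKM (SD, n = 4 oocytes each), 2.14-fold lower in KO. The sums were 1418 reads in WT (95% exact Poisson interval 1345 to 1494) and 644 in KO (595.2 to 695.7). Such intervals cover the counting error of pooled reads alone. They do not cover the spread between oocytes, nor the error in molecules, since copies made by PCR are not separate molecules. The ratio fell under 2-fold to 1.93 without WT oocyte 4, to 1.88 without KO oocyte 3, to 1.97 when rescaled to reads in listed genes and to 1.46 within the oocytes numbered 1 and 5.

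Piwil2 (ENSMUSG00000033644, chromosome 14, 70372477 to 70429383, minus strand) encodes MILI, a slicer active from fetal germ cells on. It had 1, 87, 0 and 0 reads in WT oocytes 1, 2, 4 and 5, and 38, 46, 38 and 120 reads in KO oocytes 1, 3, 5 and 6. A single WT oocyte therefore held nearly all WT reads, while every KO oocyte had some. The means were 0.0989 ± 0.195 and 0.277 ± 0.162 FPKM, 2.81-fold higher in KO with overlapping ranges. Without WT oocyte 2 the WT oocytes held 1 read in all, against 242 in KO, so the size of the ratio rests on that library.

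Piwil4 (ENSMUSG00000036912, chromosome 9, 14696230 to 14740733, minus strand) encodes MIWI2, the nuclear PIWI protein that directs DNA methylation in fetal male germ cells. It had no read in any WT oocyte and 15, 7, 0 and 10 reads in KO oocytes 1, 3, 5 and 6. Against a floor of 3 reads per WT library the KO mean of 0.0342 ± 0.0265 FPKM was at least 2.69-fold higher, at a level where 1 KO oocyte also had no read. Gm10706 lies antisense over 2.54% of its exonic bases, and whether counting used strand is not stated in the labels.

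Gtsf1 (ENSMUSG00000022487, chromosome 15, 103402405 to 103430470, minus strand) encodes a zinc finger cofactor of PIWI proteins. It was 92.1, 145.1, 148.1 and 173.6 FPKM in WT oocytes 1, 2, 4 and 5, and 104.6, 90.8, 86.2 and 54.1 FPKM in KO oocytes 1, 3, 5 and 6. The ranges overlapped through WT oocyte 1, which lay below KO oocyte 1, while the other WT oocytes lay above all KO oocytes. The means were 139.7 ± 34.2 and 83.9 ± 21.3 FPKM, 1.66-fold lower in KO. Its log2 difference of -0.73 kept its sign in all 15 alternatives.

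Among the genes of nuage and piRNA production, Ddx4 differed most and in the direction opposite to Gtsf1. Ddx4 (ENSMUSG00000021758, chromosome 13, 112598333 to 112652475, minus strand) encodes the germ cell RNA helicase VASA. It was 8.40, 1.32, 11.2 and 22.1 FPKM in WT oocytes 1, 2, 4 and 5, and 27.1, 33.8, 37.2 and 29.8 FPKM in KO oocytes 1, 3, 5 and 6. Every KO oocyte lay above every WT oocyte, and the WT oocytes themselves ranged from 171 to 2394 reads. The means were 10.7 ± 8.63 and 32.0 ± 4.43 FPKM, 2.98-fold higher in KO. The sums were 5196 reads in WT (95% exact Poisson interval 5056 to 5339) and 15794 in KO (15549 to 16042). The log2 difference of 1.89 lay between 1.15 and 2.35 over the alternatives. WT oocyte 5 carried the largest part of the WT level, and the ratio was 4.59-fold without it. The ratio was 2.30-fold without WT oocyte 2, the lowest, and 2.11-fold within the oocytes numbered 1 and 5. The coefficient of variation was 80.3% in WT and 13.9% in KO, where the medians over all compared genes were 36.3% and 32.2%.

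Asz1 (ENSMUSG00000010796, chromosome 6, 18050964 to 18109061, minus strand) encodes GASZ, a scaffold of nuage on mitochondria. It was 32.6, 31.4, 36.2 and 22.8 FPKM in WT oocytes 1, 2, 4 and 5, and 27.8, 27.5, 24.8 and 23.7 FPKM in KO oocytes 1, 3, 5 and 6. The WT range enclosed the KO range, since WT oocyte 5 was the lowest of all 8. The means were 30.8 ± 5.70 and 26.0 ± 2.001 FPKM, 1.18-fold lower in KO.

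A ratio of 2 genes within an oocyte does not depend on library scaling, and the ratio of Ddx4 to Asz1 separated the genotypes narrowly. It was 0.257, 0.0422, 0.308 and 0.969 in WT oocytes 1, 2, 4 and 5, and 0.976, 1.23, 1.499 and 1.26 in KO oocytes 1, 3, 5 and 6. The ratio of Ddx4 to Gtsf1 lay between 0.00913 and 0.127 in WT and between 0.259 and 0.551 in KO, which left a wider gap. These ratios show unequal differences of the 2 genes and not which of them differed. They reuse the Ddx4 values above, whose ranges already stood apart, so they are not separate support. The ratio of Gtsf1 to Asz1 overlapped, at 2.82 to 7.61 in WT and 2.28 to 3.77 in KO. That of Piwil1 to Asz1 was lower in KO without overlap, at 0.0581 to 0.0718 in WT and 0.0198 to 0.0539 in KO. It reuses the Piwil1 values above, whose ranges also stood apart already, so it is not separate support either. How often other gene pairs separate was not examined.

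**Figure D2:**
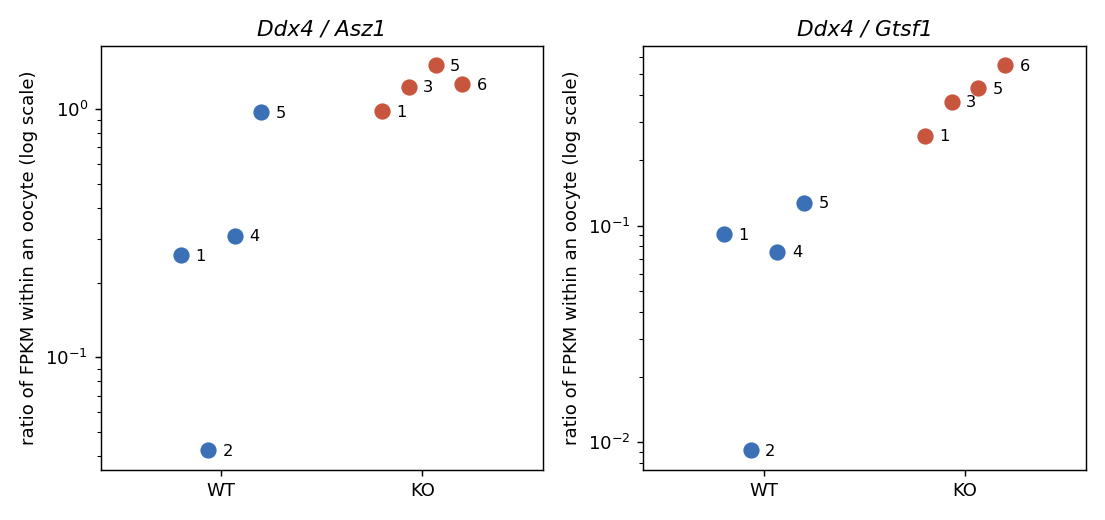
FPKM of Ddx4 divided by that of Asz1 (left) and of Gtsf1 (right) within each oocyte, on log axes, with WT in blue, KO in red and the oocyte numbers beside the points. WT oocyte 5 comes close to KO oocyte 1 in the left panel (0.969 and 0.976), and WT oocyte 2 lies far below the others in both.

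Mael (ENSMUSG00000040629, chromosome 1, 166201201 to 166238747, minus strand) encodes Maelstrom, a nuage protein needed for transposon silencing in male meiosis. It was 4.71, 5.45, 0.567 and 3.59 FPKM in WT oocytes 1, 2, 4 and 5, and 4.22, 1.48, 8.02 and 8.30 FPKM in KO oocytes 1, 3, 5 and 6. Both genotypes had 1 low oocyte, WT 4 and KO 3, and the ranges overlapped. The means were 3.58 ± 2.15 and 5.50 ± 3.27 FPKM, 1.54-fold higher in KO, a difference smaller than the SD in KO.

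Of the members named for Tudor domains, Tdrd9 stood apart between the genotypes at a low level, and Tdrkh and Tdrd1 overlapped. Tdrd9 (ENSMUSG00000054003, chromosome 12, 111971559 to 112068854, plus strand) encodes an RNA helicase that works with MIWI2 in fetal male germ cells. It was 0.308, 0.0275, 0.116 and 0.180 FPKM in WT oocytes 1, 2, 4 and 5, and 0.515, 0.320, 0.457 and 0.597 FPKM in KO oocytes 1, 3, 5 and 6. Every KO oocyte lay above every WT oocyte, with WT 1 and KO 3 close together. The sums were 131 reads in WT (95% exact Poisson interval 109.5 to 155.5) and 400 in KO (361.8 to 441.2). The means of 0.158 ± 0.118 and 0.472 ± 0.117 FPKM were 2.99-fold apart, and 1.99-fold within the oocytes numbered 1 and 5. No oocyte reached 1 FPKM, so Tdrd9 was below the level set for comparison.

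Tdrkh (ENSMUSG00000041912, chromosome 3, 94413273 to 94434668, plus strand) encodes a mitochondrial Tudor protein of piRNA 3' end trimming. It was 8.86, 4.05, 1.55 and 4.93 FPKM in WT oocytes 1, 2, 4 and 5, and 5.46, 3.99, 5.66 and 7.82 FPKM in KO oocytes 1, 3, 5 and 6. WT oocytes were both the highest and the lowest of the 8. The means were 4.85 ± 3.03 and 5.73 ± 1.58 FPKM, 1.18-fold higher in KO. The log2 difference of 0.33 turned to -0.01 without WT oocyte 4 and to -0.22 within the oocytes numbered 1 and 5. Oaz3 lies antisense over 36.7% of the exonic bases of Tdrkh and was listed at 0 in 6 oocytes, with 0.901 FPKM in WT oocyte 1, where Tdrkh was highest, and 0.0975 in WT oocyte 2. This overlap is measured on GENCODE exons of 6142 bases, whereas the reads of Tdrkh were recovered with a length of 3806 bases. Whether the counted exons held this stretch is not known. If they did, reads of the 2 genes cannot be told apart there without knowledge of strand.

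Tdrd1 (ENSMUSG00000025081, chromosome 19, 56826209 to 56870012, plus strand) encodes a partner of MILI in nuage. It was 3.54, 2.98, 4.91 and 3.63 FPKM in WT oocytes 1, 2, 4 and 5, and 3.07, 1.59, 2.63 and 4.63 FPKM in KO oocytes 1, 3, 5 and 6. The KO oocytes spread on both sides of the WT minimum. The means were 3.76 ± 0.814 and 2.98 ± 1.26 FPKM, 1.26-fold lower in KO.

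A gene was compared if it reached 1 FPKM in at least 4 of the 8 oocytes, which 7 members did, all but Piwil2, Piwil4 and Tdrd9. Piwil1 passed through the 4 WT oocytes and KO oocyte 1. Of the 7, 1 had a mean in KO of at least 2 times that in WT, Ddx4, and 1 a mean of at most 0.5 times, Piwil1. Over all 7833 compared genes, 18.3% passed this fold upwards in KO and 6.84% downwards. Ranges stood apart for the same 2 members, against 13.4% of compared genes with KO above WT and 7.37% with KO below. A single gene in each direction does not set the members apart from these shares. The median log2 difference of the 7 was -0.22, beside 0.10 over all compared genes. With all 10 members counted, 4 passed the fold upwards and 1 downwards, where 36.9% and 15.6% of the 18416 genes with any read did. Ranges of Ddx4 and Tdrd9 lay wholly higher in KO, against 8.46% of genes with any read, and the range of Piwil1 lower, against 3.7%. Rescaling to reads in listed genes moved the median of all compared genes by 0.10 and median-of-ratios scaling by -0.11, on the log2 scale. Ddx4 remained higher and Piwil1 and Gtsf1 lower in KO under both.

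**Figure D3:**
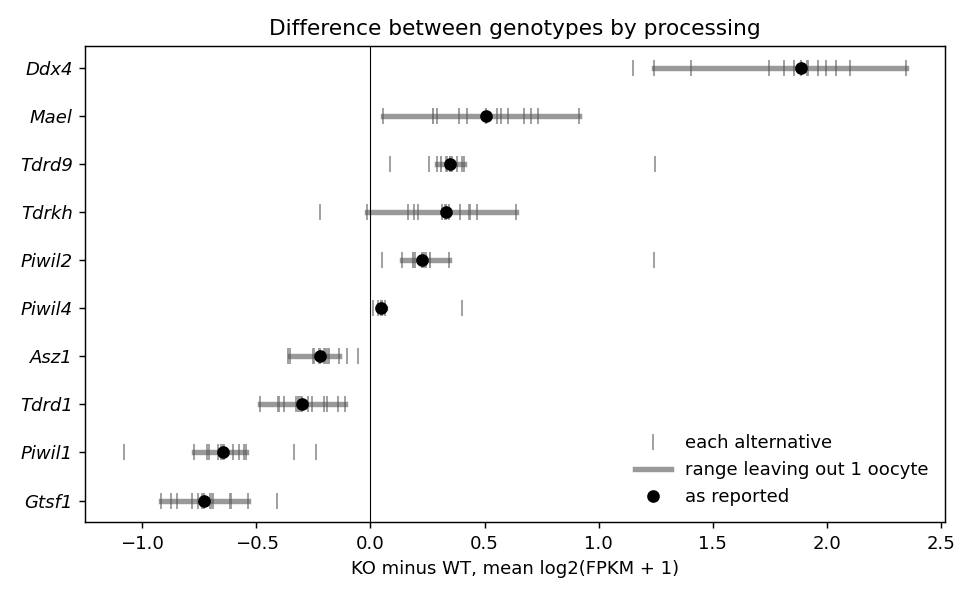
KO minus WT difference of the 10 genes in mean log2(FPKM + 1), with the reported value as a black point, the range when 1 oocyte is left out as a grey bar and each alternative as a tick. Ddx4 stays to the right of 0, Piwil1 and Gtsf1 stay to the left, and Tdrkh crosses 0.

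The members did not all vary alike between oocytes of a genotype, but some went together in KO. Mael, Tdrkh, Tdrd1 and Tdrd9 were all lowest in KO oocyte 3 and all highest in KO oocyte 6. How often other genes are lowest or highest in these oocytes was not counted, so the counts below are not a trait of the members. KO oocyte 3 was the lowest KO oocyte for 5 members, Piwil1, Mael, Tdrkh, Tdrd1 and Tdrd9, and the highest for 0. KO oocyte 6 was the highest for 5, Piwil2, Mael, Tdrkh, Tdrd1 and Tdrd9, and at the same time the lowest for Gtsf1 and Asz1. KO oocyte 1 was the highest for Piwil1, Piwil4, Gtsf1 and Asz1 and the lowest for Ddx4. In WT, each oocyte was the highest for 2 or 3 members and the lowest for 1 to 3. KO oocyte 6 also had the most genes at 1 FPKM or more, 8512, and the smallest part of its reads in listed genes, 75.0%, and the part of these in its member levels was not tested.

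The wider pathway was followed in 24 other genes, of which 23 were matched in the table and 14 were compared. Of the 14, 3 passed the fold upwards in KO and 0 downwards, against 18.3% and 6.84% of all compared genes. Ranges stood apart for 2 of the 14 with KO above WT and for 2 with KO below, against 13.4% and 7.37% of compared genes. Such small counts do not set the list apart from these shares. Their median log2 difference was 0.11, beside 0.10 over all compared genes. In mean FPKM, Rnf17 and Stk31 lay above every member other than Gtsf1 in both genotypes, and Tdrd12 did so in WT.

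Of the other Tudor domain genes, Rnf17, Tdrd12 and Stk31 held the highest levels of this list, while Tdrd5, Tdrd6 and Tdrd7 were low. Mean FPKM in WT and KO was 1.67 and 2.26 for Tdrd5, 0.0860 and 0.935 for Tdrd6, and 0.358 and 0.127 for Tdrd7. Rnf17, a Tudor protein that restrains the piRNA amplification cycle in mouse testis, was 43.2, 53.9, 59.7 and 54.7 FPKM in WT oocytes 1, 2, 4 and 5 and 41.6, 35.6, 31.0 and 26.0 FPKM in KO oocytes 1, 3, 5 and 6. Every KO oocyte lay below every WT oocyte, with means of 52.9 ± 6.92 and 33.5 ± 6.66 FPKM, 1.58-fold lower in KO. Tdrd12, needed for secondary piRNA production in mouse testis, averaged 45.9 and 31.4 FPKM with overlap. Stk31, a germ cell protein with Tudor and kinase-like domains, averaged 45.9 and 52.1 FPKM with overlap.

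In piRNA production, Pld6, the mitochondrial enzyme of the Zucchini family, was 6.05, 7.86, 7.005 and 8.86 FPKM in WT oocytes 1, 2, 4 and 5 and 4.61, 5.11, 3.91 and 4.03 FPKM in KO oocytes 1, 3, 5 and 6. All KO oocytes were below all WT oocytes, 1.69-fold lower in the mean. Henmt1, which methylates piRNA 3' ends, averaged 3.70 FPKM in WT and 7.18 in KO with overlap, and 14.7% of its exonic bases have Gm9857 antisense. Fkbp6, a cochaperone of piRNA loading, averaged 2.35 and 4.85 FPKM, 2.07-fold higher in KO, but 5.51-fold without WT oocyte 1 and 0.931 times the WT level within the oocytes numbered 1 and 5.

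Among factors that act on chromatin or transcription, Tcfl5 and Morc1 were higher in KO in every oocyte. Tcfl5, a transcription factor of piRNA genes in mouse testis, was 5.49, 2.76, 4.16 and 5.28 FPKM in WT oocytes 1, 2, 4 and 5 and 12.2, 16.2, 12.3 and 16.5 FPKM in KO oocytes 1, 3, 5 and 6. The means were 3.23-fold apart, and 7.39% of its exonic bases have Col9a3 antisense. Morc1, needed for transposon silencing in male germ cells, was 1.51, 2.16, 3.67 and 1.44 FPKM in WT and 3.84, 4.25, 6.66 and 4.12 FPKM in KO in the same orders, 2.15-fold higher in the mean. This fold was 1.96 with median-of-ratios scaling, 1.95 without WT oocyte 1, 1.93 without WT oocyte 5, 1.85 without KO oocyte 5 and 3.56 within the oocytes numbered 1 and 5. Mybl1, encoding the factor A-MYB that drives piRNA genes at male pachytene, averaged 14.6 and 16.3 FPKM, a difference whose sign turned in 5 of 15 alternatives. Tex15, which acts with MIWI2 in mice, averaged 16.1 and 9.68 FPKM, and the Gtsf1 relative Gtsf2 22.8 and 15.1 FPKM, both with overlap. Btbd18 had no read in any oocyte, and Wdr77 was above 0 in KO oocyte 1 alone, at 0.00696 FPKM. Atp5f1 and Gm42890 overlap Wdr77, with 28.7% of its exonic bases shared on the same strand and 6.96% antisense. How reads in shared exons were counted is not stated in the labels.

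**Figure D4:**
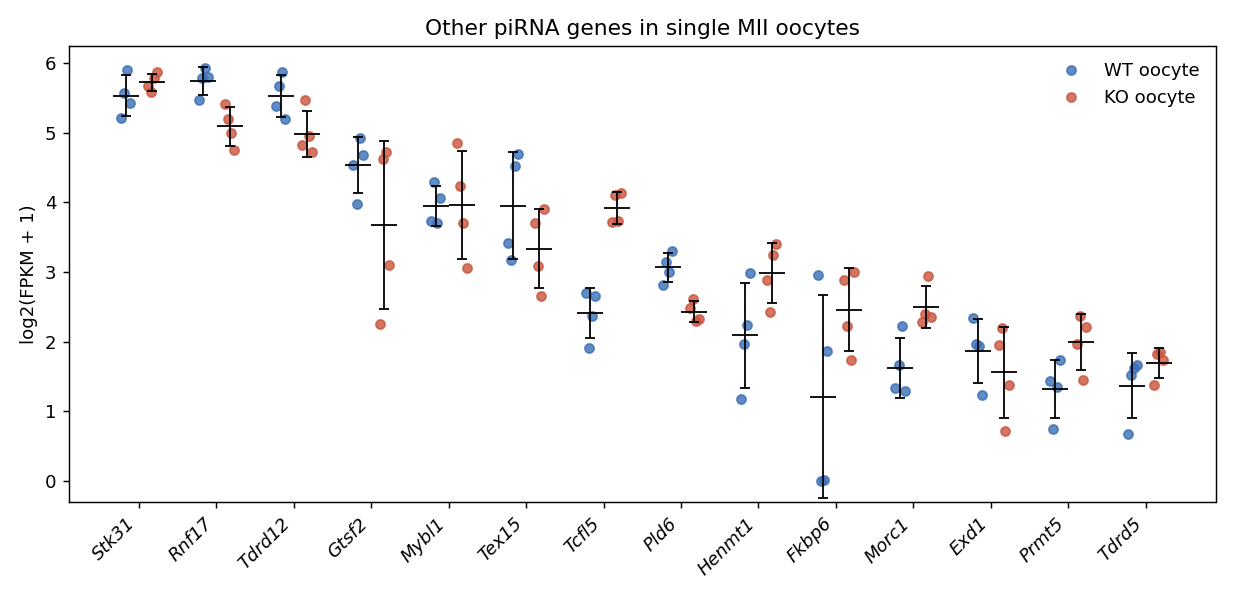
Level of the 14 compared genes of the wider piRNA list in log2(FPKM + 1), with 1 point per oocyte (WT blue, KO red) and bars for the mean and SD over oocytes. Rnf17 and Pld6 have all KO points below the WT points, and Tcfl5 and Morc1 have all KO points above them.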

How the data were processed

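The values are FPKM deposited by the authors in 1 table with a column for each of the 8 oocytes. Each oocyte went straight into SMARTer cDNA synthesis and amplification with ERCC spike-in RNA, per the labels' protocols. Build mm9, HTSeq, edgeR 3.1.10, TopHat2 2.0.2, Bowtie 0.12.8 and Bowtie2 appear in the submitters' processing notes, without roles. The annotation, and whether strand was used, are not stated there. Spike-in values were not used here, so a level is a share of its library.

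A table of names gave symbols for 32897 of the identifiers, and coordinates and exon overlaps from GENCODE M21 on GRCm38. FPKM moves in steps of 1 read, which gave library totals and whole reads within 0.001 for 99.9% of the 18416 genes with reads. For 8192 genes the GENCODE exon length was used, for 8251 the smallest length that made all values whole, and for 1949 with reads in fewer than 3 oocytes the length nearest to GENCODE. The recovery and the fold counts were tried on simulated reads of genes with the GENCODE exon length, with counting noise as the only random spread. That trial did not cover the smallest-length route, which was used for Piwil1, Piwil2, Mael, Ddx4, Tdrkh and Tdrd9. Nor did it cover a spread between oocytes like that of these data.

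Mean log2(FPKM + 1) in WT was subtracted from that in KO, a scale that shrinks the change of a low gene, and a fold is the ratio of mean FPKM values. Alternatives were pseudocounts of 0.1 and 5, no filter, a mean of at least 5 FPKM, 2 scalings, each oocyte left out in turn and a replicate block. Members, lists and comparisons were chosen with earlier results of these data known. The named genes are the 10 members, Hira, and genes of the wider list with a mean of at least 5 FPKM or, if compared, a 2-fold ratio. Genes with few reads, Tdrd5, Tdrd6, Tdrd7 and Oaz3 were named after their values were seen. Work was done in Python 3.11.15 with numpy 2.4.6, pandas 2.3.3, scipy 1.17.1 and matplotlib 3.10.9.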

Additional observations from a re-analysis of the deposited data

Results flagged for a closer look

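Within groups of 4 oocytes, 41 groups of values were screened for an oocyte far from the other three relative to the range, a screen that chance alone trips in about 1 of 20 groups, and 2 were found. Piwil2 was 0.391 FPKM in WT oocyte 2, with at most 1 read in the other WT oocytes. Morc1 was 6.66 FPKM in KO oocyte 5, above 3.84 to 4.25 FPKM in the other KO oocytes.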

How the results depend on the processing

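Of the 15 alternatives, the median difference of the compared members kept its sign in 13 and was 0.14 with no filter, over 10 members, and 0.056 over the 4 members with a mean of at least 5 FPKM. It lay between -0.31 and -0.11 when 1 oocyte was left out. The count of members at least 2-fold higher was 4 with no filter and 1 elsewhere, leave-one-out included. The count at least 2-fold lower, which is Piwil1, was 0 with a mean of at least 5 FPKM, which drops Piwil1, and 0 when rescaled to reads in listed genes. It was 0 or 1 when 1 oocyte was left out, and 0 without WT oocyte 4 and without KO oocyte 3. The median of the wider list was -0.54 over its 9 genes with a mean of at least 5 FPKM, beside 0.02 over all genes under that filter. With median-of-ratios scaling it was -0.03, beside -0.02 over all compared genes. It lay between -0.03 and 0.23 when 1 oocyte was left out, negative without KO oocyte 1 alone. With a replicate block, which rests on the numbers 1 and 5 shared by the genotypes, the members' median was -0.22, 1 was 2-fold higher and 0 were 2-fold lower. The labels do not say that a number pairs oocytes. The cause of these shifts was not tested, beyond the members a filter adds or drops. Folds of Piwil2, Piwil4 and Tdrd9 rest on few reads, at most 400 in a genotype.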
